A study of Mus musculus with 8 samples.

Results

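A set of transcripts of cytokine feedback was followed in peritoneal macrophages that had or had not been exposed to apoptotic cells. They are the SOCS family members Socs1, Socs2, Socs3, Socs6 and Cish, the transcription factors Stat3, Stat5a and Stat5b, the kinase Jak2 and the STAT target Pim1, chosen by symbol as 10 of the 47643 genes in the tables. Macrophages of C57 BL/6 mice, the cells of a peritoneal lavage that stick to the plate, received dimerizer alone (MΦ+Dimerizer, the control, 4 libraries) or were cultured beside NIH 3T3 FV-hCasp8 cells before the same dimerizer was added (MΦ+FV-Casp8+Dimerizer, the co-culture, 4 libraries). NIH 3T3 is a mouse fibroblast line, here single clones that carry a human caspase-8 which the dimerizer joins and activates, so that the fibroblasts die by apoptosis. A transwell membrane with 5 µm pores kept both cell types apart, and RNA was taken from 500000 macrophages per well 48 h after 10 nM dimerizer. The study states that these pores let apoptotic bodies and mediators pass. Both cell types are of the mouse, so any fibroblast RNA carried over would be counted with that of the macrophages. Such carry-over was not tested. The control wells had no fibroblasts at all, and macrophages beside living fibroblasts were not analysed here, so an effect of the fibroblasts as such and one of their death cannot be told apart. The study describes the replicates as macrophages of individual animals.

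Cytokine receptors without an enzyme of their own hold JAK kinases on their inner side. Once a cytokine joins the receptor chains, the kinases phosphorylate the receptor and the STAT proteins bound to it, and the STAT dimers move to the nucleus and switch on their targets. Among these targets are the SOCS genes, whose products bind the receptor or the kinase and end the signal, so that their transcripts are widely read as a trace of recent cytokine signalling. In macrophages STAT3 is best known for the responses to IL-6 and IL-10, and STAT5 for the responses to GM-CSF and IL-3.

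Values are normalized counts from sequencing of mRNA 3′ ends. Each molecule gives a read at its 3′ end whatever its length, so levels of different genes can be set side by side without division by length. Libraries held 5904441 to 11506556 reads (median 7983312), with a median of 7267570 in MΦ+Dimerizer and of 9156097 in MΦ+FV-Casp8+Dimerizer. All 12 macrophage markers were measured in both groups. Their summed level, most of it from the lysozyme gene Lyz2, was 206116.3 to 213689.5 in MΦ+Dimerizer and 231254.7 to 258927.2 in MΦ+FV-Casp8+Dimerizer. Lyz2 itself did not pass the test (log2 fold change 0.28). The factor Gata6 (−0.71) and the receptor Mertk (−0.25) were lower in the co-culture. Timd4 (1.52), Itgam (0.60), Fcgr1 (0.59) and Adgre1 (0.27) were higher, and the remaining markers did not pass.

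In the co-culture 4 of the 10 transcripts were lower and none was higher. The kinase Jak2, the survival kinase Pim1, the feedback inhibitor Socs2 and the factor Stat5b fell, while Socs1, Socs3, Socs6, Cish, Stat3 and Stat5a did not pass the test (limma on log2 values, Benjamini-Hochberg adjusted p under 0.05 over 12029 genes). Of all tested genes 13.7% were lower by the same rule and 15% were higher. The median log2 fold change was −0.21 over the 10 transcripts and 0.01 over all tested genes, and all 10 passed the filter of a mean of at least 10. Groups did not overlap, with the co-culture lower, for 2 of the 10 (Jak2 and Stat5b), against 14.1% of all tested genes.

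**Figure D1:**
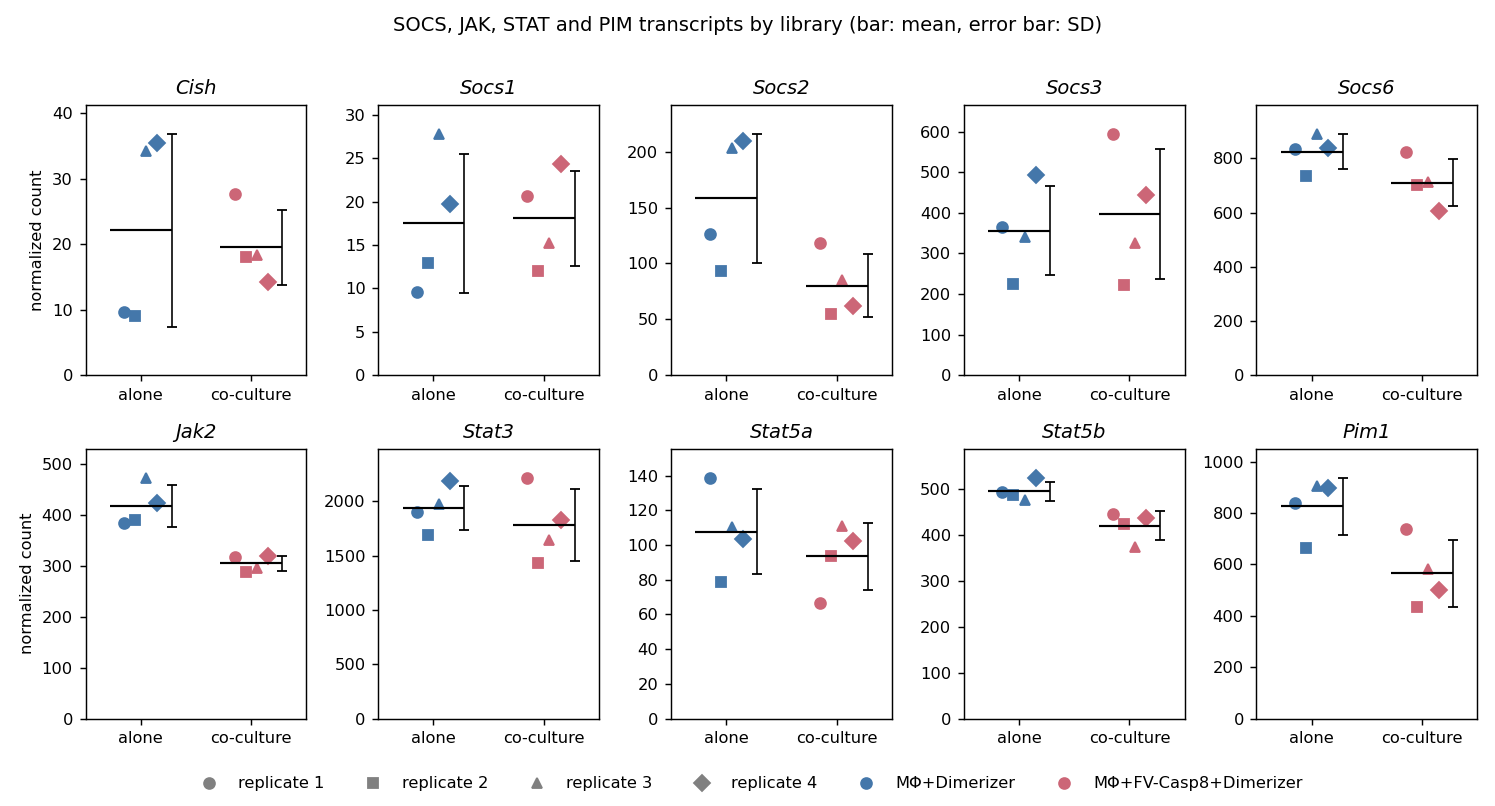
Normalized counts (vertical axes, each starting at 0) of the 10 transcripts in the 4 MΦ+Dimerizer and the 4 MΦ+FV-Casp8+Dimerizer libraries; marker shapes give the replicate, horizontal bars the mean and error bars the SD. For Jak2 all co-culture libraries (287.6 to 318.3) sit below all libraries with dimerizer alone (384.8 to 473.1), whereas for Socs1, Socs3, Cish, Stat3 and Stat5a both groups overlap.

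Jak2 is the kinase that GM-CSF, IL-3 and several other receptors need for signalling. Its gene lies on chromosome 19 (GRCm38, chr19:29251828-29313080, plus strand, ENSMUSG00000024789). Normalized counts were 384.8, 389.5, 473.1 and 422.6 in control replicates 1 to 4 and 317.0, 287.6, 295.0 and 318.3 in MΦ+FV-Casp8+Dimerizer. Every co-culture library was below every library with dimerizer alone, and the co-culture libraries lay close together. Group means were 417.5 ± 40.7 and 304.5 ± 15.5 (SD, n = 4 each). The fall amounted to −0.45 on the log2 scale (SE 0.09, 95% interval −0.64 to −0.26, adjusted p = 0.00196). An exact two-sided permutation test over the 70 relabellings gave p = 0.0286, the smallest that 4 against 4 libraries allow. Jak2 passed under every alternative run, with log2 fold changes of −0.49 to −0.39. In the main limma test it was the only one of the 10 transcripts under an adjusted p of 0.01. Some alternatives also put Pim1 and Socs2 under 0.01, such as DESeq2 (adjusted p = 0.00167 and 0.00143).

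Pim1 encodes a serine/threonine kinase that promotes survival and growth and is a textbook target of both STAT3 and STAT5 (chr17:29490753-29496112, plus strand, ENSMUSG00000024014). MΦ+Dimerizer libraries held 839.6, 664.3, 904.6 and 896.2 normalized counts, and MΦ+FV-Casp8+Dimerizer libraries 739.6, 434.8, 582.9 and 501.7. In the co-culture 3 libraries were below all controls, whereas replicate 1 of the co-culture lay above replicate 2 of the controls. From 826.2 ± 111.7 the mean fell to 564.8 ± 131.4, a log2 fold change of −0.57 (SE 0.15, 95% interval −0.88 to −0.25, adjusted p = 0.0105; exact permutation p = 0.0571). The call held under all alternatives at the threshold of 0.05, with log2 fold changes of −0.70 to −0.45.

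Socs2 showed the largest change of the 10. Its product, the feedback inhibitor best known for restraining growth hormone signalling through STAT5, is encoded at chr10:95385362-95417180 (minus strand, ENSMUSG00000020027). With dimerizer alone the normalized counts were 126.4, 92.9, 203.7 and 209.3, and in the co-culture 118.3, 54.8, 85.5 and 62.0. The controls split into a lower pair (replicates 1 and 2) and a higher pair (replicates 3 and 4), and 3 of the 4 co-culture libraries lay below the lowest control. The mean fell from 158.1 ± 57.6 to 80.2 ± 28.6, a ratio of 0.52 and a log2 fold change of −0.96 (SE 0.27, 95% interval −1.55 to −0.37, adjusted p = 0.0185; exact permutation p = 0.0571). Of all tested genes 4.14% fell by at least as much. The call was lost in 4 of the 8 fits with a library left out. Without control replicate 3 or 4 the adjusted p was 0.0587 or 0.0586, and without co-culture replicate 2 or 4 it was 0.058 or 0.0541. Log2 fold changes in these fits were −0.86 to −0.80. At the threshold of 0.05 it passed in 10 of 11 other settings, edgeR (adjusted p = 0.0113) and DESeq2 (0.00143) among them, but not with a robust variance trend (0.0565).

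Stat5b fell by the smallest amount of the 4. STAT5B is the more abundant of the pair of STAT5 proteins here by transcript, and both are encoded side by side on chromosome 11 with Stat3 (Stat5b at chr11:100780731-100850724, minus strand, ENSMUSG00000020919). MΦ+Dimerizer libraries held 493.3, 485.0, 475.9 and 523.8 normalized counts and MΦ+FV-Casp8+Dimerizer libraries 445.6, 422.8, 373.3 and 435.6, without overlap. The mean fell from 494.5 ± 20.8 to 419.3 ± 32.1 (log2 fold change −0.24, SE 0.08, 95% interval −0.41 to −0.07, adjusted p = 0.0399, exact permutation p = 0.0286). With 7 libraries the call was kept only when co-culture replicate 1 was left out (adjusted p = 0.037). Leaving out control replicate 1, 2, 3 or 4 gave adjusted p = 0.0819, 0.0629, 0.0512 and 0.105, and leaving out co-culture replicate 2, 3 or 4 gave 0.0591, 0.114 and 0.0594.

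**Figure D2:**
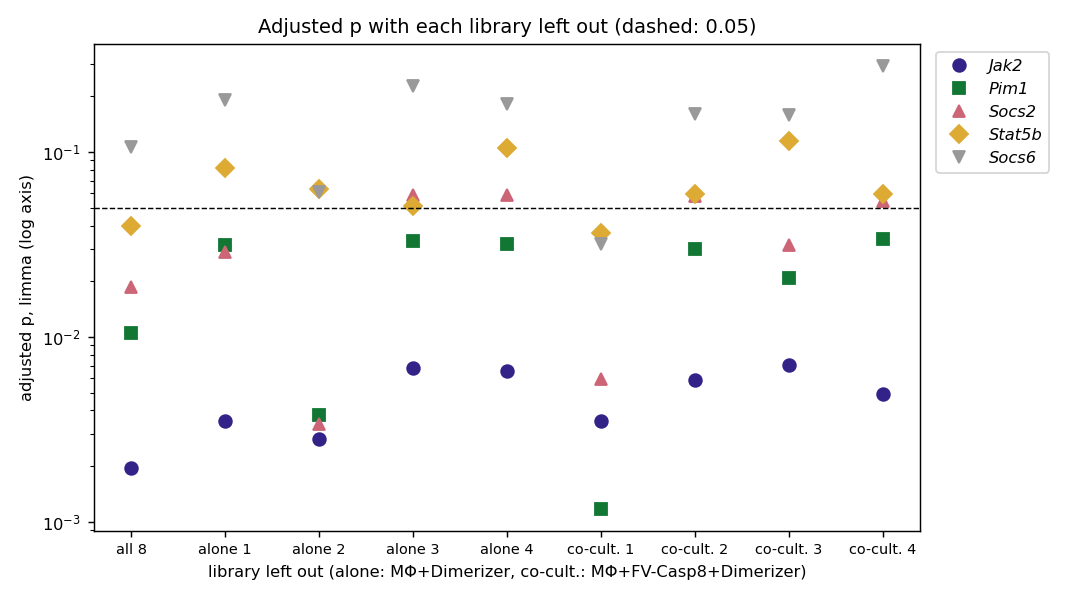
Adjusted p (limma, log axis) of Jak2, Pim1, Socs2, Stat5b and Socs6 with all 8 libraries and with each library left out in turn; the dashed line marks 0.05. Jak2 and Pim1 stay below the line throughout, Socs2 crosses it in 4 cases and Stat5b in 7, and Socs6 drops below it only without co-culture replicate 1 (0.0318).

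Stat5a and Stat3 did not pass. Stat5a, the close relative of Stat5b (chr11:100859351-100885169, plus strand, ENSMUSG00000004043), held 138.8, 78.7, 110.2 and 103.2 normalized counts with dimerizer alone and 66.6, 93.9, 110.9 and 102.5 in the co-culture. Its log2 fold change was −0.20 (SE 0.19, 95% interval −0.61 to 0.21, adjusted p = 0.474). Stat5b made up 82.2% ± 3.41 of the reads of both STAT5 genes in MΦ+Dimerizer and 81.7% ± 4.07 in MΦ+FV-Casp8+Dimerizer (SD, n = 4 each), so the make-up of the pair differed by less than the spread between replicates.

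Stat3 was the most abundant of the 10 transcripts, above 94.8% of all tested genes in mean level (chr11:100885098-100939540, minus strand, ENSMUSG00000004040). Its normalized counts were 1900.4, 1689.7, 1971.3 and 2184.6 in MΦ+Dimerizer and 2216.6, 1427.6, 1645.9 and 1827.3 in MΦ+FV-Casp8+Dimerizer. The highest and the lowest of all 8 values both came from the co-culture, and the log2 fold change was −0.13 (SE 0.12, 95% interval −0.39 to 0.12, adjusted p = 0.438). Stat3 and Stat5a overlap by 72 bases at their 3′ ends, on opposite strands, and although the library kit reads the forward strand, whether the counting used the strand is not stated in the sources at hand, so a part of their reads could have been assigned to the other gene.

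Among the feedback inhibitors, Socs6 was the most abundant and Socs1 and Cish the least. Socs6 (chr18:88665224-88927481, minus strand, ENSMUSG00000056153), an inhibitor known from insulin and receptor tyrosine kinase signalling, held 834.1, 736.5, 889.8 and 838.3 normalized counts with dimerizer alone and 823.5, 701.4, 712.1 and 607.5 in the co-culture. Again 3 of the 4 co-culture libraries lay below the lowest control. The log2 fold change of −0.22 (SE 0.10, 95% interval −0.42 to −0.01) did not pass (adjusted p = 0.106), and it passed, among other alternatives, without co-culture replicate 1 (−0.29, adjusted p = 0.0318) and with libraries weighted by their quality (−0.28, adjusted p = 0.0402).

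Socs3 shuts off the IL-6 receptor chain gp130 and is a classical STAT3 target (chr11:117966079-117970047, minus strand, ENSMUSG00000053113). Its normalized counts were 364.1, 225.7, 339.8 and 492.3 with dimerizer alone and 593.8, 223.0, 324.5 and 444.4 in the co-culture. Replicate 2 was the lowest library of each group, and both groups covered a wide range. The means of 355.5 ± 109.4 and 396.4 ± 159.7 differed by less than that spread (log2 fold change 0.12, SE 0.27, 95% interval −0.46 to 0.69, adjusted p = 0.784).

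Socs1 and Cish were read only a few times per library. SOCS1 blocks JAK kinases directly, above all after interferon (chr16:10782240-10785536, minus strand, ENSMUSG00000038037). It was represented by 7 to 30 reads per library with dimerizer alone and by 15 to 36 in the co-culture, or 9.6, 12.9, 27.8 and 19.7 against 20.7, 12.0, 15.3 and 24.3 normalized counts. CISH is the STAT5-induced inhibitor of the IL-2 and IL-3 family of receptors (chr9:107296026-107302784, plus strand, ENSMUSG00000032578). It was read 7 to 37 times per library with dimerizer alone and 18 to 24 times in the co-culture, or 9.6, 9.0, 34.3 and 35.4 against 27.6, 18.0, 18.3 and 14.2 normalized counts. The controls of Cish formed a low and a high pair, replicates 1 and 2 against 3 and 4, and the co-culture fell between them. At these counts only large changes could have been seen: the 95% intervals ran from −0.64 to 0.85 for Socs1 (log2 fold change 0.10, adjusted p = 0.862) and from −0.88 to 0.99 for Cish (0.05, adjusted p = 0.943).

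STAT dimers bind a palindrome, TTCNNNGAA in its usual form, and the promoters of Cish and Socs3 are textbook examples of it. RefSeq promoter windows (GRCm38.p6, 300 bases, from 250 before to 50 after a start site) were found for 8 of the 10 genes, all but Socs2 and Socs6, giving 11 windows. The motif, which reads the same on both strands, was present in 2 of the 11 windows and in 8.3% of 32851 windows of all genes, and 0.457% of all windows held at least 2 copies. The stretches around the matches are printed because these genes are the standard transcript readouts of STAT5 and STAT3, with the motif in capitals.
Cish (chr9:107296654-107296683, plus strand): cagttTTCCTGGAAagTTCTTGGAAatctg
Socs3 (chr11:117969501-117969530, minus strand): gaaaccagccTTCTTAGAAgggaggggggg
Cish held 2 copies, at bases 1 to 9 and 12 to 20 counted from the start site, and Socs3 held 1 copy, 154 to 146 bases before it. Neither of these 2 transcripts passed the test, and Jak2, Pim1 and Stat5b, which fell, had no match in their windows. A match of letters is a description of the window only.

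The order of the levels differed in its middle part. With dimerizer alone Stat3 was highest, followed by Pim1 and Socs6, whose ranges overlapped, then by Stat5b, by Jak2 and Socs3 with overlapping ranges, by Socs2 and Stat5a, and by Cish and Socs1. In the co-culture Stat3 remained highest and Cish and Socs1 lowest, while Socs6, Pim1, Stat5b, Socs3 and Jak2 formed a chain in which each overlapped the next, and Stat5a came before Socs2.

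Within the reads of the 5 SOCS genes, the share of Socs2 was lower in the co-culture. It was 8.62% to 13.6% in the 4 MΦ+Dimerizer libraries (mean 11.2% ± 2.54) and 5.38% to 7.47% in the 4 MΦ+FV-Casp8+Dimerizer libraries (6.42% ± 1.17), without overlap. Socs6 held 60.6% ± 6.55 and 59% ± 8.28, and Socs3 25.4% ± 4.46 and 31.6% ± 7.87. Cish and Socs1 together made up the small remainder, with 1.52% ± 0.855 and 1.25% ± 0.468 with dimerizer alone against 1.58% ± 0.253 and 1.48% ± 0.421 in the co-culture. Apart from Socs2, the shares differed by less than the spread between replicates or overlapped between the groups.

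**Figure D3:**
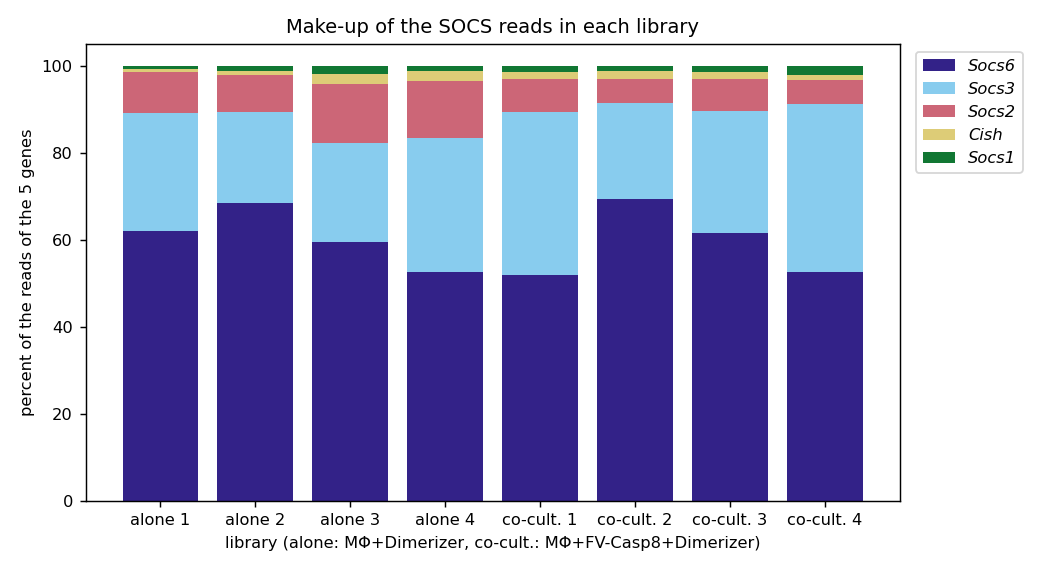
Share (percent, vertical axis from 0) of Socs6, Socs3, Socs2, Cish and Socs1 in the summed reads of these 5 genes for each of the 8 libraries. The Socs2 segment covers 8.62% to 13.6% in the libraries with dimerizer alone and 5.38% to 7.47% in the co-culture.

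Genes whose pattern over the 8 libraries was most like that of a fallen transcript were found by the mean absolute difference of log2 values, each centred on its own mean. For Socs2 these were the complement component C3 (0.192) and the interferon-regulatory factor Irf1 (0.207), against a median of 0.593 over the tested genes. For Jak2 they were Lmo4 (0.027) and Daam1 (0.056; median 0.289), for Pim1 Kmt2a (0.089) and Ikzf2 (0.094; median 0.372), and for Stat5b Ppt2 (0.024) and Sdf4 (0.031; median 0.223). Irf1 had a log2 fold change of −1.11 (adjusted p = 0.00327) and C3 one of −0.80 (adjusted p = 0.0422), while Sdf4 did not pass (−0.20, adjusted p = 0.0692). All of them were picked for their likeness to a transcript that fell, so their own fall is not a separate result.

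Most of the rest of the pathway inside the cell did not pass. Of 25 further SOCS, JAK, STAT, PIM and regulator genes, all tested, 1 was higher (against 15% of all tested genes) and 5 were lower (against 13.7%). None of the other SOCS genes (Socs4, Socs5, Socs7) and none of the other JAK kinases (Jak1, Jak3, Tyk2) passed, with log2 fold changes of 0.14, 0.23 and −0.17 and of −0.08, 0.37 and −0.12. Jak2 was therefore the only JAK kinase past the threshold, although differences between the kinases were not tested.

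Stat4, the factor through which IL-12 signals, was the gene that rose. Its normalized counts were 17.9, 14.2, 37.0 and 22.6 with dimerizer alone and 80.4, 51.8, 93.6 and 100.5 in the co-culture, without overlap. From 22.9 ± 10.0 the mean rose to 81.6 ± 21.5 (log2 fold change 1.83, SE 0.28, adjusted p = 0.000339). Stat2 (0.27) and Stat6 (0.04) did not pass.

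Among 14 other regulators of the pathway, inhibitors, phosphatases and adaptors outside the SOCS family, 4 were lower and none was higher. Of all tested genes 13.7% were lower and 15% were higher. Cbl, a ubiquitin ligase that removes activated receptors, fell from 5560.2 ± 346.2 to 4155.0 ± 405.7 (log2 fold change −0.42, adjusted p = 0.00207). The phosphatases Ptpn1 (−0.25, adjusted p = 0.0234), Ptpn6 (−0.36, adjusted p = 0.026) and Ptprc (−0.29, adjusted p = 0.0317) fell by less. Ptpn1 lost its call in 5 of the 8 fits with a library left out (adjusted p up to 0.0761) and also without the filter (0.0515), and Ptpn6 in 5 (up to 0.0771). Pim3, a relative of Pim1, fell by 0.43 on the log2 scale (adjusted p = 0.0296) and lost its call in 5 (up to 0.085), whereas Pim2 had a log2 fold change of 0.38 and did not pass.

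**Figure D4:**
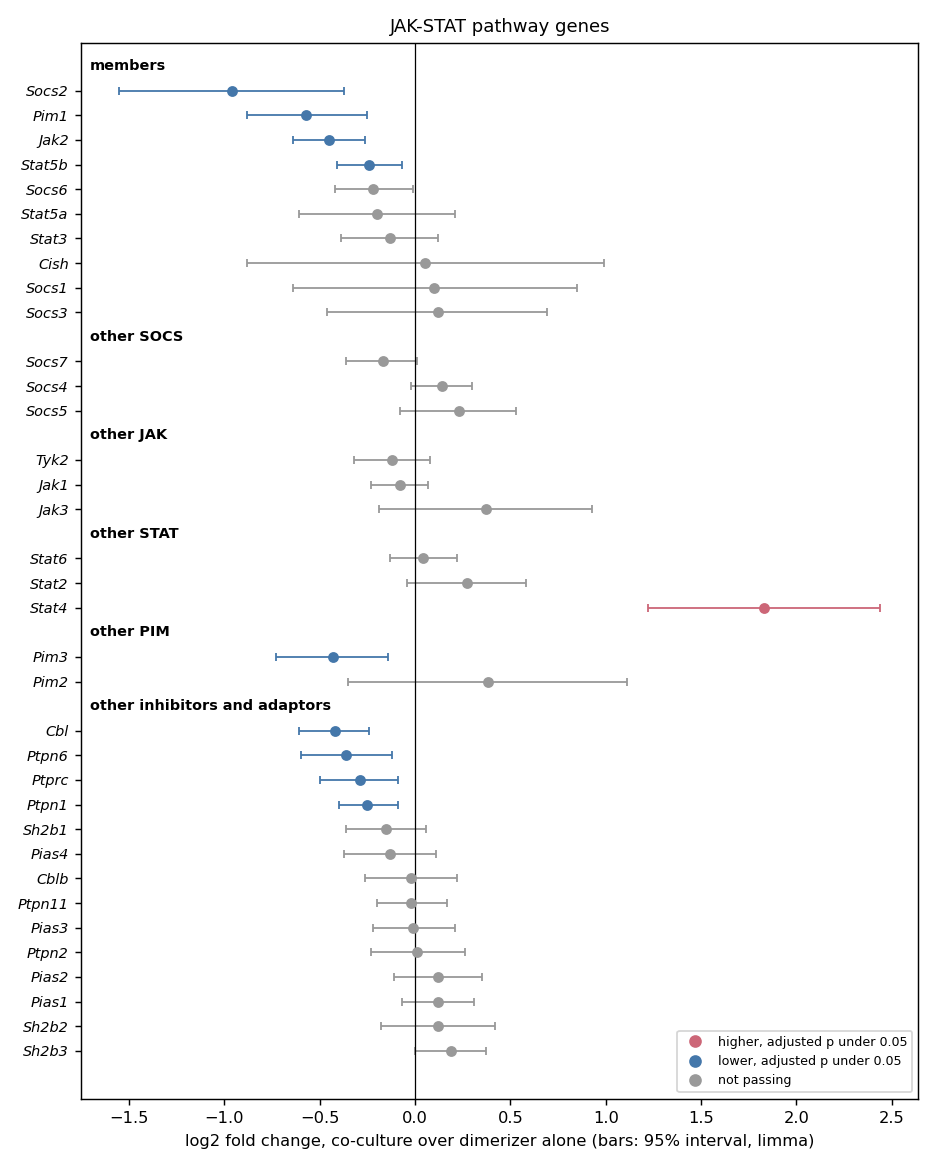
Log2 fold change, MΦ+FV-Casp8+Dimerizer over MΦ+Dimerizer (horizontal axis), with its 95% interval from limma, for the 10 followed transcripts (members) and 25 further genes of the pathway. Blue marks genes with an adjusted p under 0.05 that were lower, red those that were higher and grey those that did not pass; Stat4 (1.83) is the only red point.

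Receptors that feed into these kinases were mostly lower or did not pass. Of 34 receptor chains that use JAK kinases, 25 were tested; 12 of them were lower, 3 were higher and the remaining 10 missed the threshold (median log2 fold change −0.32). The other 9 were below the filter. Of all tested genes 13.7% were lower and 15% were higher, with a median of 0.01. Il11ra1, the IL-11 receptor chain, fell from 1382.9 ± 161.3 to 578.4 ± 70.2 (log2 fold change −1.26, SE 0.10, adjusted p = 2.22e-06). Il7r, the chain shared by IL-7 and TSLP, held 3532.9 to 5149.0 normalized counts with dimerizer alone and 1215.1 to 2427.9 in the co-culture (−1.34, SE 0.18, adjusted p = 8.56e-05). Reads of Il11ra1 could be shared with its near-identical copy Il11ra2, so its level is uncertain.

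Il6st encodes gp130, the chain through which IL-6, IL-11, LIF and oncostatin M reach STAT3. It held 1328.8, 1331.1, 1396.3 and 1249.0 normalized counts with dimerizer alone and 937.2, 672.9, 870.8 and 842.9 in the co-culture. All co-culture libraries were lower, and the mean fell from 1326.3 ± 60.3 to 830.9 ± 112.6 (log2 fold change −0.68, SE 0.09, adjusted p = 0.000136). The IL-6 receptor chain Il6ra had a log2 fold change of −0.10 and did not pass.

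The chains of the GM-CSF and IL-3 receptors, which use Jak2 and STAT5, were named after their values had been seen. Csf2rb, their common chain, fell from 3177.7 ± 191.5 to 1852.0 ± 547.3 (log2 fold change −0.82, adjusted p = 0.00101), its copy Csf2rb2 from 1228.8 ± 89.5 to 599.9 ± 207.7 (−1.09, adjusted p = 0.000353), and Il3ra from 180.9 ± 42.4 to 93.9 ± 14.6 (−0.92, adjusted p = 0.00157). Csf2ra had a log2 fold change of −0.56 (adjusted p = 0.0153), and lost its call without control replicate 1 (0.0541) or co-culture replicate 3 (0.0507). Csf2rb and Csf2rb2 are near-identical, so reads could be split between them in either way. Il5ra, which pairs with the same common chain, had a log2 fold change of 0.44 and did not pass.

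Il4ra, Il21r and Lifr were the chains that rose. Il4ra, through which IL-4 and IL-13 signal, rose from 482.2 ± 73.5 to 954.5 ± 70.3 (log2 fold change 0.99, SE 0.10, adjusted p = 1.57e-05). Il21r, the IL-21 receptor, rose from 163.0 ± 43.9 to 404.9 ± 62.7 (1.33, SE 0.17, adjusted p = 7.47e-05). Lifr, the LIF receptor that pairs with gp130, rose from 55.6 ± 6.8 to 87.9 ± 17.7 (0.63, adjusted p = 0.0145), and did not pass without co-culture replicate 4 (0.0549).

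**Figure D5:**
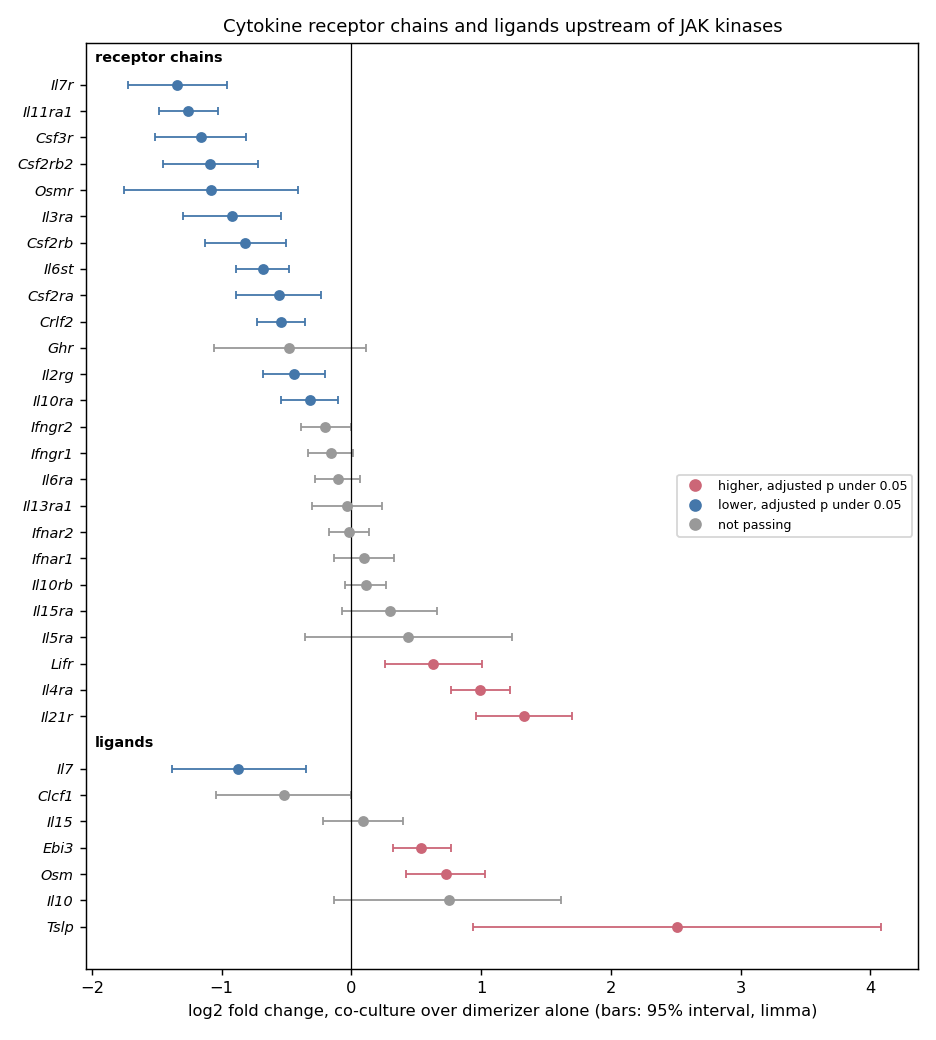
Log2 fold change, MΦ+FV-Casp8+Dimerizer over MΦ+Dimerizer (horizontal axis), with its 95% interval from limma, for the 25 receptor chains and 7 ligands tested. The 12 lower chains lie in blue, from Il7r (−1.34) to Il10ra (−0.32), and Il21r (1.33), Il4ra (0.99) and Lifr (0.63) lie in red on the higher side.

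Transcripts of the ligands were mostly too low to test. Of 26 ligands 7 passed the filter, and of these 3 rose, 1 fell and the remaining 3 missed the threshold. Over all tested genes 15% rose and 13.7% fell. Csf2, Il3, Il5, Il9, Il13, Il21 and Ifnb1 had no read in any library, and Il6 held at most 13.8 normalized counts. Osm, which encodes oncostatin M, rose from 89.0 ± 9.3 to 148.8 ± 26.5 (log2 fold change 0.73, SE 0.14, adjusted p = 0.00166). The oncostatin M receptor chain Osmr was among the lower chains, at low counts (27.5 ± 7.1 to 12.8 ± 4.7, −1.08, adjusted p = 0.0192). Ebi3, a subunit of IL-27, rose from 349.1 ± 49.8 to 505.2 ± 33.6 (0.54, SE 0.10, adjusted p = 0.00165). Il7 fell from 26.5 ± 2.4 to 14.3 ± 3.0 (−0.87, adjusted p = 0.0157), and did not pass without the filter (0.0522). Tslp rose from low counts, 0.0 to 9.8 against 4.6 to 40.7 (2.51, SE 0.73, adjusted p = 0.0197), and did not pass without control replicate 1 (0.051) or co-culture replicate 2 (0.0537) or 3 (0.0727). The STAT3-activating cytokine Il10 had a log2 fold change of 0.75 (SE 0.41, adjusted p = 0.194).

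Genes known as targets of STAT3 or STAT5 went both ways. Of 29 STAT3 targets, all tested, 9 rose, 10 fell and 10 missed the threshold (median log2 fold change 0.13). That is 31% higher and 34.5% lower, against 15% and 13.7% of all tested genes (median 0.01). Ccnd1, the cyclin that starts the cell cycle, rose from 412.8 ± 106.7 to 3775.4 ± 840.7 (3.21, adjusted p = 1.73e-07) and Birc5, which encodes the mitotic protein survivin, rose from 150.2 ± 17.0 to 668.5 ± 278.9 (2.07, adjusted p = 9.86e-06). Vegfa, the endothelial growth factor, fell by 0.77 on the log2 scale (adjusted p = 0.000634), and Timp1, an inhibitor of matrix proteases, fell by 0.95 (adjusted p = 0.0008).

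Of 15 STAT5 targets 10 were tested, of which 6 rose, 2 fell and 2 missed the threshold (median 0.38). Against these stand 15% higher and 13.7% lower among all tested genes (median 0.01). Ccnd1 and Osm are also on this list, which shares 5 genes with the STAT3 list. Id1, an inhibitor of differentiation factors, rose from 177.4 ± 29.8 to 447.5 ± 157.0 (log2 fold change 1.29, adjusted p = 0.000235). Ccnd2, another cyclin D, fell by 0.50 (adjusted p = 0.0105). Bcl6, a repressor of transcription, fell by 0.51 (adjusted p = 0.0239) which did not hold without control replicate 1 (0.0755) or 2 (0.0553) or co-culture replicate 2 (0.0504) or 3 (0.0718), or with a robust variance trend (0.0539).

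Markers of some other cells differed between the groups. Summed levels of fibroblast, mesothelial, neutrophil and red cell markers were lower in the co-culture without overlap, and those of the other lists below overlapped. Most of the neutrophil sum came from Mmp8 (2744.8 ± 1403.1 to 812.5 ± 258.1), and the neutrophil marker S100a8 did not pass (log2 fold change 0.27). Of all tested genes 13.7% were lower and 15% were higher. In bulk RNA, fewer cells of a type and less RNA per cell cannot be told apart. Fibroblast markers were lower for 12 of 16 tested, with Twist2 higher, and their summed level was 20591.5 to 30022.3 with dimerizer alone and 10984.4 to 19394.8 in the co-culture. Without fibronectin (Fn1), which macrophages also express, that sum was 7516.6 to 11453.6 against 3141.3 to 4716.9. All 3 tested mesothelial markers were lower (151.9 to 217.1 against 58.7 to 102.9), as were 2 of 3 neutrophil markers (2052.9 to 5232.8 against 1022.4 to 1750.3, Ly6g at 0; Csf3r is also 1 of the 12 lower receptor chains), 2 of 9 mast cell markers (666.8 to 3942.7 against 572.2 to 1570.4), 1 of 2 eosinophil markers (60.5 to 92.9 against 18.9 to 60.9, Epx and Prg2 at 0) and both red cell markers (76.9 to 307.8 against 1.0 to 22.5). Dendritic cell markers were lower for 3 and higher for 1 of 5 (428.2 to 655.5 against 359.0 to 984.3), B cell markers lower for 1 and higher for 2 of 9 (1605.8 to 8662.8 against 4069.5 to 9822.7), and the 1 tested T and NK cell marker did not pass (27.1 to 77.6 against 36.0 to 92.6, Gzma at 0). Macrophage markers, whose sums are given above, were higher for 4 and lower for 2 of 12. The part of these cells in the changes of Jak2, Pim1, Socs2, Stat5b and the receptor chains was not tested.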

How the data were processed

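RNA of 8 macrophage cultures was measured by QuantSeq 3′ mRNA sequencing with molecular identifiers. The submitters' processing notes name STAR, HTSeq, DESeq2 and the build GRCm38. The study names the forward (FWD) version of the Lexogen QuantSeq pipeline. The annotation release, and whether the gene counting used the strand, are not given in the sources used here. Deposited values are normalized counts, a signal the authors made by dividing reads per gene by a size factor per library. Multiplied by that factor, 100% of values in every library were whole reads within 0.001. Symbols and coordinates came from GENCODE M21, which matched 99.1% of the 47643 genes. Within a group, chi-square per degree of freedom between libraries was at least 4.322, so no library was a duplicate.

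The package limma 3.58.1 (R 4.3.3) compared the groups for 12029 genes with a mean of at least 10, using log2(normalized count + 1) and a variance trend. Fold changes on this scale understate the change of low genes. Two-sided p values were Benjamini-Hochberg adjusted, with a threshold of 0.05. Exact permutation tests used 70 relabellings. edgeR 4.0.16 on the recovered reads called 1741 genes higher and 1746 lower, and DESeq2 1.42.0 called 1689 and 1637. Further alternatives were a mean above 30, no filter, pseudocounts of 5 and 0.5, upper-quartile and quantile scaling, array weights, a robust trend, a replicate block, an adjusted p under 0.01 and each library left out.

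The members, the gene lists and the tests were chosen with earlier results of these data known. Named genes are all members, the 3 genes of smallest adjusted p in each direction from each pathway list, and the 2 nearest in pattern to each member that passed. Cell type markers were summed by list. A single gene of the pathway lists was left out and is not reported here. Genes named as examples beyond these, and those marked so in the text, were chosen after their values were seen. Promoter windows came from RefSeq. Tables and figures were made in Python 3.11.15 (numpy 2.4.6, pandas 2.3.3, matplotlib 3.10.9).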

Additional observations from a re-analysis of the deposited data

Results flagged for a closer look

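Csf2rb2, a copy of the common chain of the GM-CSF and IL-3 receptors, had a control library that stood apart: replicate 2 of MΦ+Dimerizer held 1362.1 normalized counts, whereas the other 3 held 1169.4 to 1195.0. Its gap to the nearest library, divided by the range of the group, was 0.867, above the critical value of Dixon's test for 4 values. Of 72 groups of 4 libraries examined in this way, 1 was beyond that value, and chance alone gives about 1 in 20. The cause was not tested.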

How the results depend on the processing

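No transcript that passed changed its direction under any alternative, and none of the 10 was called higher. At an adjusted p under 0.01 in the main limma test, 1 transcript (Jak2) remained lower, and 1104 genes were higher and 968 lower instead of 1806 and 1646. With each library left out in turn, 2 to 5 of the 10 were lower. Socs2 did not pass with a robust variance trend (0.0565) and Stat5b did not pass without a filter (0.0666). A mean above 30 removed Cish and Socs1 from the test. The median log2 fold change of all genes was 0.01, and −0.01 after quantile or upper-quartile scaling, and the share of higher calls was 52.3%, against 49% and 49.2% with these scalings, 49.9% with edgeR and 50.8% with DESeq2, which also change the model.

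Same-numbered libraries of the groups correlated in their deviations from the group means with r = 0.0884, 0.341, 0.293 and 0.194. Of the 8 libraries, 8 correlated best with their own number. For replicate 1 the best other match of the control library was 0.0209. The deposited column labels of same-numbered libraries also begin with the same number in both groups. No source states that these numbers mark shared animals, so the main test did not treat the libraries as pairs. If the numbers do mark shared animals, the main test, the permutation tests and the fits with a library left out ignore that pairing. With the replicate number as a block, 5 of the 10 transcripts were lower (Socs6 added, adjusted p = 0.0429), and 2293 genes were higher and 2118 lower. In that limma fit the adjusted p was 0.00263 for Socs2 and 0.000288 for Pim1.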

Other observations

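Within MΦ+Dimerizer, 7 of the 10 transcripts (Socs1, Socs2, Socs6, Cish, Stat3, Jak2 and Pim1) were higher in both of the libraries with the most reads, replicates 3 and 4, than in replicates 1 and 2. Of all tested genes 19.4% showed this order and 20% showed the opposite one. Within MΦ+FV-Casp8+Dimerizer the order ran the other way: 4 of the 10 (Socs2, Socs6, Cish and Pim1) were lower in both of the libraries with the most reads, replicates 2 and 4, against 16% of all tested genes, and none was higher in both, against 16.1%. The comparison was made after the values of the libraries had been seen, and its cause was not tested.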
